A study of Mus musculus with 8 samples.

Results

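The interferon response genes examined here are 42 mouse genes listed by name. They were listed for their place in interferon signalling, in the antiviral response, in RNA sensing or in class I antigen presentation. No measured value was the criterion, but the list was chosen with earlier results of these data known. Of the 42 genes, 40 had a row among the 21879 genes of the table, and Mx1 and Mx2 were not analysed here. The cells were C2C12, a clonal mouse myoblast line, labelled in all 8 samples as undergoing muscle differentiation in 2% horse serum after growth in 10% fetal bovine serum. A control siRNA (siNC, 4 libraries) or an siRNA against Fam129b (siFam129b, 4 libraries) was delivered with the same lipid reagent, so every library came from transfected cells and no untransfected level was measured. The labels give no genotype beyond the line, no siRNA sequence, no time after transfection, and no statement that the 4 samples of a group came from different cultures. The p-values below may therefore reflect technical spread alone.

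Interferons are secreted proteins that cells release on sensing viral nucleic acid. They bind receptor pairs at the cell surface, the kinases Jak1 and Tyk2 on those receptors activate Stat proteins, and Stat2 together with Irf9 binds a promoter element, the interferon-stimulated response element, in front of a large set of antiviral genes. Interferon gamma acts through Ifngr1 and a related element called GAS, reached in part through Irf1. Double-stranded RNA, the form in which siRNA is delivered, is the kind of ligand that the sensors Ddx58, Ifih1 and Eif2ak2 respond to when it is long or carries a triphosphate end.

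The promoter element of these genes is shown first because it is the sequence through which many antiviral genes are switched on. RefSeq promoter windows of the GRCm38.p6 build, each 250 bases before to 50 after a start site, were matched by symbol for 35 of the 42 members. The letters GAAANNGAAA were searched on either strand, with overlapping copies allowed. These letters stood in a window of 13 of these 35 genes (37.1%), against 3.99% of the 27025 genes with a RefSeq promoter window. They were Isg15, Ifit1, Ifit3, Rsad2, Oas1a, Bst2, Gbp2, Gbp3, B2m, Stat2, Ddx58, Ifih1 and Eif2ak2. A shared element is part of why such genes carry the name of the response, so the share describes the choice of members. Stretches wholly before the start site are given for 7 of the 13, with the matching letters in capitals, all 5′ to 3′ on the gene's own strand.
Isg15 (minus strand, chr4:156200845-156200926), in which 3 copies overlap: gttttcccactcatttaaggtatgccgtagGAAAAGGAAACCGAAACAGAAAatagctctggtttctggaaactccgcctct
Ifit1 (plus strand, chr19:34640755-34640843), with 2 copies: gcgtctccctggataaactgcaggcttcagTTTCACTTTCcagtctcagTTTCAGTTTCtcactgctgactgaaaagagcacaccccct
Ifit3 (plus strand, chr19:34583343-34583446), with 2 copies: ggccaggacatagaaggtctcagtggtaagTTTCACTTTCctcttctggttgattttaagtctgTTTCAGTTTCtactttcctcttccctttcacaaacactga
Rsad2 (minus strand, chr12:26456533-26456602): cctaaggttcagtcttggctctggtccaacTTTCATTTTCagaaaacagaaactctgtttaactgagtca
Bst2 (minus strand, chr8:71537557-71537632), in which 2 copies overlap: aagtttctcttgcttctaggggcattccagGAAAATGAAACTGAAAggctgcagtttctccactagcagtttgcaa
Gbp2 (plus strand, chr3:142620574-142620643): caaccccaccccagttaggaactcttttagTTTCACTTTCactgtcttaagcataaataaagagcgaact
B2m (plus strand, chr2:122147518-122147587): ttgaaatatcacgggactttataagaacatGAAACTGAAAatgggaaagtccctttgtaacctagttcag
The GAS letters TTCNNNGAA are a pattern that reads the same on both strands. They stood in a window of 9 of the 35 genes (25.7%), against 9.55% of the 27025 genes with a window. In Bst2, Oas1a and Eif2ak2 both patterns were present, and in Bst2 the GAS match runs into the first GAAA of the copy above. Irf1 is shown because this gene is the textbook GAS target.
Irf1 (plus strand, chr11:53769894-53769962): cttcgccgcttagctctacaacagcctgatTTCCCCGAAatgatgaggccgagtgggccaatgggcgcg
A match says only that these letters are present, and the absence of the letters in a window of this size says nothing about the factor.

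The libraries held between 31466869 and 36031688 reads, recovered from the deposited FPKM (fragments per kilobase of gene, scaled to sequencing depth) as the smallest whole numbers that give their ratios. The targeted gene, Fam129b, had a mean of 168 ± 11.6 FPKM (SD, n = 4) in siNC libraries. In siFam129b libraries its mean was 98.5 ± 19.9 FPKM (SD, n = 4), or 58.8% of the control (exact two-sided permutation p = 0.0286, the minimum for this design). Fam129b stood at 91.6, 87.0, 87.3 and 128 FPKM in siFam129b libraries 1 to 4. Library 4 thus held 145% of the mean of libraries 1 to 3 and was the least depleted. siFam129b library 4 also stood apart with an FPKM sum of 470385, against 391336 to 398292 in the other 7. Its values are given separately below. Myoblast markers were abundant, their sum over 5 genes lying between 283 and 436 FPKM. Of 6 leukocyte markers Adgre1 and Itgam were at 0 in every library and Ptprc was at most 0.0247 FPKM. The summed leukocyte level ran from 2.88 to 3.71 FPKM with siNC and from 2.86 to 4.57 FPKM with siFam129b, nearly all of it Cd68, a lysosomal protein. Myog, the differentiation factor, lay between 2.10 and 14.3 FPKM.

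The 5 receptor and kinase genes averaged between 14.1 and 48.6 FPKM over the 8 libraries. The 15 induced antiviral genes had a median of 0.949 FPKM, 8 of them averaging under 1 FPKM, and the median over all 21879 rows was 1.10 FPKM. Of 9 interferon genes looked for as possible ligands, 8 were listed at 0 in every library, Ifnb1 and Ifng among them, and Ifne reached at most 0.0956 FPKM.

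**Figure D1:**
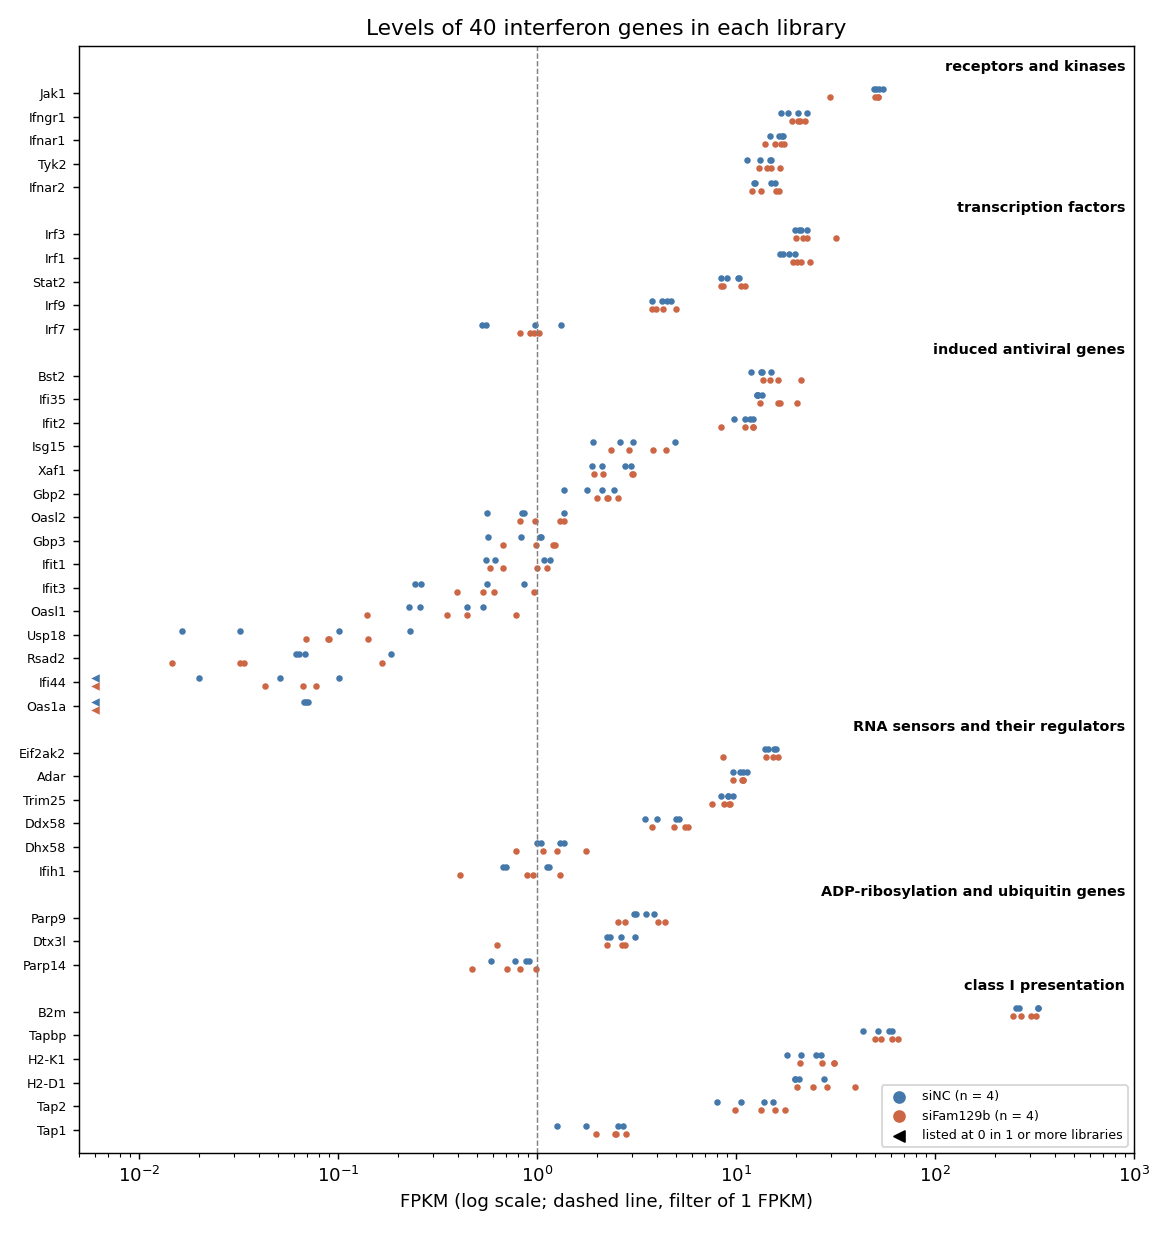
FPKM of the 40 interferon genes on a log axis, 1 point per library, siNC and siFam129b in separate rows and grouped by role; triangles at the left edge stand for libraries listed at 0. Receptors, kinases and class I genes lie to the right of 1 FPKM, and Oas1a, Ifi44, Rsad2 and Usp18 stay at or below 0.229 FPKM in every library.

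Jak1, the kinase shared by all interferon receptors, was the most abundant of the signalling genes. Its level was 54.5, 52.3, 50.4 and 49.1 FPKM in siNC libraries 1 to 4, and 51.5, 51.6, 49.9 and 29.5 FPKM in siFam129b libraries 1 to 4. Library 4 alone was low, and the other 7 lay within a narrow band. Ifngr1, the ligand-binding chain of the interferon gamma receptor, held 22.6, 20.5, 18.2 and 16.9 FPKM with siNC and 20.8, 22.1, 19.2 and 20.4 FPKM with siFam129b, and the groups overlapped. Ifnar1, a chain of the type I receptor, ranged from 13.9 to 17.4 FPKM, and Tyk2, the kinase bound to it, from 11.4 to 16.7 FPKM. Ifnar2, the other chain, averaged 13.8 ± 1.74 FPKM (SD, n = 4) with siNC and 14.4 ± 2.10 FPKM (SD, n = 4) with siFam129b. The neighbours Ifnar1, Tyk2 and Ifnar2 in this order do not differ beyond their spread over libraries.

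The transcription factors ranged from about 1 FPKM for Irf7 to over 20 FPKM for Irf3. Irf3, which is present before infection and is activated by the sensors, held 19.9, 20.6, 21.2 and 22.8 FPKM with siNC and 22.6, 21.6, 20.1 and 31.7 FPKM with siFam129b. Irf1 held 18.5, 19.8, 17.3 and 16.6 FPKM with siNC and 21.3, 20.3, 19.2 and 23.6 FPKM with siFam129b. In Irf1 3 of the 4 siFam129b libraries exceeded every siNC library, and library 3, at 19.2 FPKM, fell inside the siNC range. Stat2 ranged from 8.38 to 11.1 FPKM and Irf9 from 3.77 to 4.99 FPKM. Irf7, the factor that rises as interferon feeds back on the cell, lay between 0.529 and 1.32 FPKM.

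The induced antiviral genes spanned from a few reads in all to more than 20 FPKM. Oas1a, which makes the messenger that activates RNase L, was represented by 3 recovered reads in all, 1 in each of siNC libraries 1, 3 and 4, and was listed at 0 in the rest. Ifi44 rested on 35 reads over the 8 libraries, Usp18, the protease that removes Isg15 from proteins, on 46, and Rsad2, the antiviral enzyme viperin, on 79. Ifit1, which binds viral RNA caps, averaged 0.852 ± 0.313 FPKM (SD, n = 4) with siNC and 0.844 ± 0.259 FPKM (SD, n = 4) with siFam129b. Ifit3 averaged 0.480 ± 0.289 FPKM (SD, n = 4) with siNC and 0.624 ± 0.242 FPKM (SD, n = 4) with siFam129b, and its libraries overlapped those of Ifit1. Ifit2 averaged 11.2 ± 1.06 FPKM (SD, n = 4) with siNC, above both beyond their spread. Oasl1 ranged from 0.139 to 0.783 FPKM, Oasl2 from 0.560 to 1.37 FPKM, and the guanylate-binding protein gene Gbp3 from 0.567 to 1.24 FPKM.

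The highest induced genes were Bst2, Ifi35 and Ifit2. Bst2, which encodes tetherin and holds budding virus at the cell surface, stood at 15.1, 11.9, 13.3 and 13.6 FPKM with siNC and 13.7, 16.2, 14.7 and 21.3 FPKM with siFam129b. Ifi35 stood at 13.6, 12.9, 12.8 and 12.8 FPKM with siNC and 16.5, 13.3, 16.2 and 20.3 FPKM with siFam129b. For Ifi35 3 siFam129b libraries lay above all siNC libraries and library 2 lay inside their range. Gbp2 held 2.44, 2.13, 1.78 and 1.36 FPKM with siNC and 2.26, 2.56, 2.25 and 2.00 FPKM with siFam129b, with overlap. Members with GAAANNGAAA in their promoter window had a median level of 2.10 FPKM (13 genes, from 0.0259 for Oas1a to 290.0 for B2m), and the 22 matched members without it had a median of 12.6 FPKM. The letters stood before genes near 0 as well as before the most abundant member.

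RNA sensors were present at low to moderate levels. Eif2ak2, the kinase PKR that halts translation on binding double-stranded RNA, held 15.5, 14.4, 13.9 and 15.9 FPKM with siNC and 14.1, 15.3, 16.2 and 8.56 FPKM with siFam129b. Ddx58, the sensor RIG-I, held 5.19, 4.98, 4.00 and 3.48 FPKM with siNC and 5.74, 5.54, 4.85 and 3.78 FPKM with siFam129b. In both groups libraries 1 and 2 of Ddx58 were the higher. Ifih1, the sensor MDA5, lay between 0.408 and 1.31 FPKM and Dhx58, their relative LGP2, between 0.785 and 1.75 FPKM. Adar, which edits double-stranded RNA, held 9.63, 10.4, 11.3 and 10.8 FPKM with siNC and 9.62, 10.8, 10.7 and 10.8 FPKM with siFam129b, the steadiest of the 6. Trim25, a ubiquitin ligase that acts on RIG-I, ranged from 7.56 to 9.63 FPKM.

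Parp9 and Dtx3l form a complex that attaches ubiquitin. Parp9 held 3.15, 3.88, 3.51 and 3.08 FPKM with siNC and 4.38, 4.06, 2.54 and 2.76 FPKM with siFam129b. Dtx3l held 3.12, 2.64, 2.26 and 2.33 FPKM with siNC and 2.78, 2.67, 2.24 and 0.630 FPKM with siFam129b. siFam129b library 4 thus had 24.6% of the mean Dtx3l level of the other siFam129b libraries, and 75.4% of their Parp9. Its Parp9 level, at 2.76 FPKM, was nevertheless above the 2.54 FPKM of siFam129b library 3. The genes lie on opposite strands, and 458 exonic bases are shared between them in the GENCODE M21 annotation. The labels mention no strand-marking step and no stranded counting, so reads in that stretch cannot be told apart. The same holds for Irf3 and Bcl2l12 over 88 bases and for Irf7 and Phrf1 over 45 bases. Bcl2l12 averaged 12.6 FPKM and Phrf1 18.9 FPKM, the latter far above Irf7. Longer stretches are shared by other members, among them Adar (1365 bases), Tapbp (904), Tyk2 (554), Tap2 (533), Ifi35 (290) and Tap1 (212). Of the genes opposite these, only Chrnb2 opposite Adar (0.206 FPKM) and Psmb9 opposite Tap1 (0.285 FPKM) had a row. Parp14 ranged from 0.472 to 0.988 FPKM.

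Class I presentation genes included the most abundant member. B2m, the light chain of every class I molecule, held 328, 330.0, 264 and 255 FPKM with siNC and 303, 323, 271 and 246 FPKM with siFam129b. Tapbp, the tapasin that loads peptide onto class I, held 60.6, 58.6, 51.6 and 43.4 FPKM with siNC and 65.1, 60.6, 53.3 and 49.9 FPKM with siFam129b. In these 2 genes libraries 1 and 2 lay above libraries 3 and 4 in either group. The heavy chain H2-K1 held 26.7, 25.2, 21.2 and 18.0 FPKM with siNC and 31.0, 27.1, 20.9 and 30.9 FPKM with siFam129b. The heavy chain H2-D1 held 20.6, 27.6, 19.9 and 19.7 FPKM with siNC and 20.3, 28.7, 24.3 and 39.4 FPKM with siFam129b. H2-K1 and H2-D1 are close paralogs of a multigene family, and how the authors' counting divided shared reads is not given in the sources used here, so their separate levels are uncertain. The peptide transporter subunits Tap2 and Tap1 ranged from 8.01 to 17.7 FPKM and from 1.26 to 2.81 FPKM.

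The comparison of siFam129b with siNC asks whether depleting Fam129b altered these transcripts. It was fitted by limma on log2(FPKM + 1) over 11025 genes whose average reached 1 FPKM, and p-values were adjusted by Benjamini-Hochberg with a threshold of 0.05. Of the 40 genes, 29 passed this filter on the mean over all libraries and 11 did not (Irf7, Ifit1, Ifit3, Ifi44, Ifih1, Oas1a, Oasl1, Rsad2, Usp18, Gbp3 and Parp14). No member of the 29 passed, and 0% of all tested genes did. The targeted gene, Fam129b, did not pass either, with a log2 difference of -0.78 ± 0.13 (SE). This fit therefore missed a difference of that size, and the absence of calls does not show that the members were unchanged. The smallest adjusted p among the members was 0.784. At an unadjusted p under 0.05 stood 1 member, Ifi35, which is 3.45% of the 29, against 2.49% of all tested genes. Of the 29, 19 had higher and 10 lower means with siFam129b, with a median log2 difference of 0.08, and the median over all tested genes was 0.003.

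The members with the smallest p were mostly those higher with siFam129b. Ifi35 differed by 0.31 ± 0.12 (SE) on the log2(FPKM + 1) scale, Irf1 by 0.21 ± 0.10 (SE) and Bst2 by 0.26 ± 0.14 (SE). H2-D1 differed by 0.32 ± 0.19 (SE), H2-K1 by 0.26 ± 0.16 (SE) and Gbp2 by 0.17 ± 0.13 (SE). On the other side Jak1 differed by -0.21 ± 0.17 (SE) and Dtx3l by -0.29 ± 0.25 (SE). With siFam129b library 4 left out Jak1 differed by -0.016 and Dtx3l by -0.007, H2-D1 by 0.15 and Bst2 by 0.14. Each of these 8 had, over all libraries, an adjusted p of 0.784. In no member did all siFam129b libraries lie above or below all siNC libraries, whereas 1.90% of all tested genes lay above and 1.46% below in this way. Of the 6 class I genes 5 were above 0, of the 7 tested induced genes 6, of the 4 tested transcription factors 3, of the 5 receptors and kinases 3, of the 5 tested sensors 2 and of the 2 tested ADP-ribosylation and ubiquitin genes 0.

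**Figure D2:**
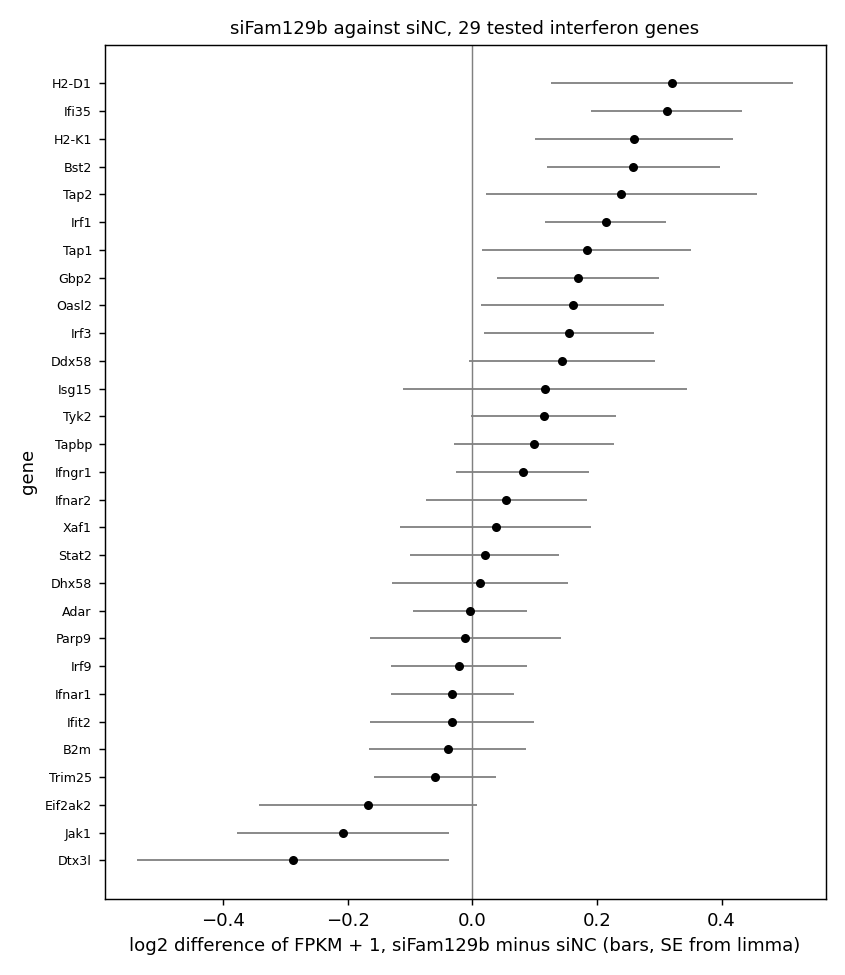
Difference between siFam129b and siNC for each of the 29 tested interferon genes on the log2(FPKM + 1) scale, with standard errors from limma (n = 4 per group). The points run from -0.29 for Dtx3l to 0.32 for H2-D1, and the longest bars belong to Dtx3l (SE 0.25) and Isg15 (SE 0.23).

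The median difference depended on single libraries. Leaving out siNC library 4 brought it to 0.008 and leaving out siNC library 3 to 0.03. Omitting siFam129b library 1 gave 0.04 and omitting siFam129b library 2 gave 0.05. It rose to 0.13 when siNC library 1 was omitted and to 0.12 when siFam129b library 3 was. With siFam129b library 4 left out it was 0.09, and 24 of the 29 were above 0. With every library rescaled to an equal FPKM sum it was 0.02, with 15 of 29 above 0, while the median of all genes moved to -0.06. The call of 0 members held in every one of these fits.

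Replicate number separated these genes more than the siRNA did. The difference between replicates 1 and 2 on the one side and 3 and 4 on the other was taken within each group and averaged, as a description with no test, because this division was known from earlier results of these data; the labels name no batch. Of the 29 tested members 23 (79.3%) were higher in replicates 1 and 2, and 52.4% of all tested genes were. The median difference was 0.23 on the log2(FPKM + 1) scale, 0.23 within siNC and 0.18 within siFam129b, and the median over all tested genes was 0.01. In 12 members all 4 libraries of replicates 1 and 2 lay above all 4 of replicates 3 and 4, where 11.1% of all tested genes did so. No member lay wholly below, where 11.0% of tested genes did.

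**Figure D3:**
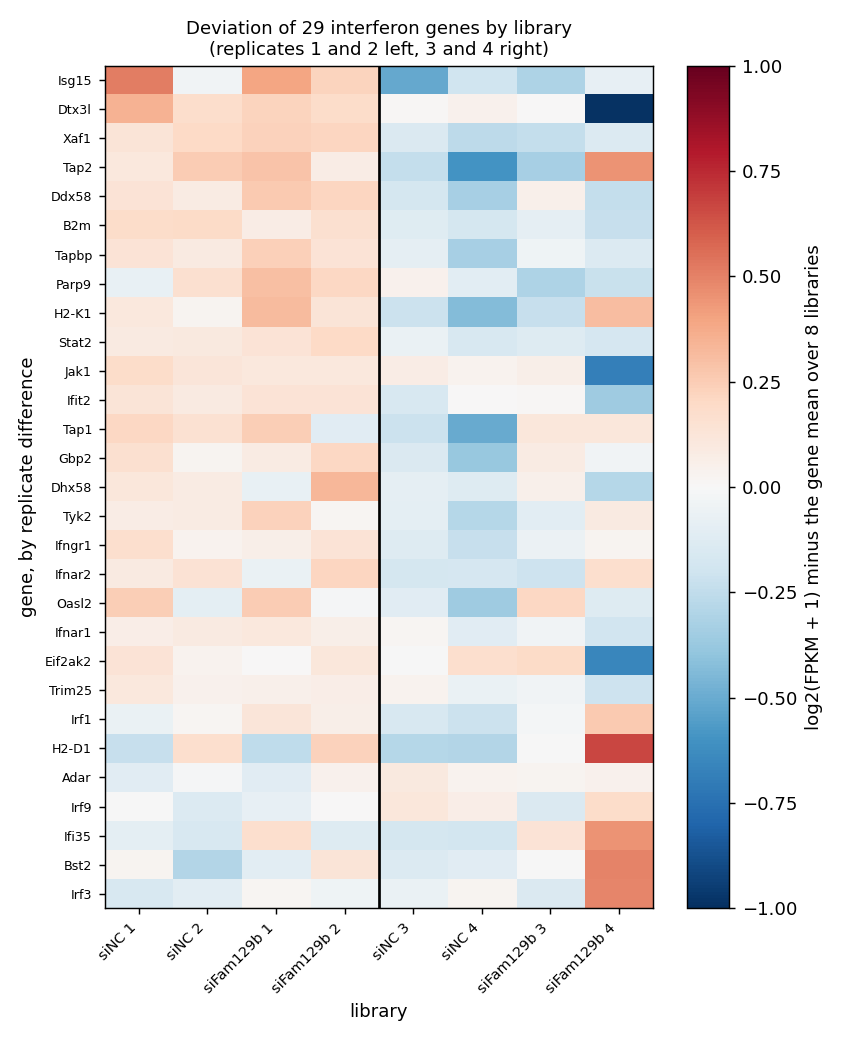
Deviation of each library from the gene's mean over 8 libraries, in log2(FPKM + 1), for the 29 tested interferon genes ordered by the replicate difference; replicates 1 and 2 of either group stand left of the line and 3 and 4 right of it. Most cells of the upper rows, from Isg15 at 0.55 downward, are red on the left and blue on the right, and siFam129b library 4 departs from its neighbours in Dtx3l, Jak1, Eif2ak2 and H2-D1.

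Isg15, a ubiquitin-like protein attached to other proteins during the response, had the widest gap. It held 4.91, 3.03, 1.90 and 2.61 FPKM in siNC libraries 1 to 4 and 4.45, 3.84, 2.35 and 2.91 FPKM in siFam129b libraries 1 to 4. The lowest library of replicates 1 and 2, at 3.03 FPKM, lay just above the highest of replicates 3 and 4, at 2.91 FPKM. Its log2 difference was 0.59 within siNC and 0.51 within siFam129b, resting on 48 to 128 reads per library. Xaf1, a pro-apoptotic interferon target, held 2.76, 2.96, 2.12 and 1.88 FPKM with siNC and 3.04, 3.00, 1.92 and 2.14 FPKM with siFam129b. Its difference was 0.37 within siNC and 0.41 within siFam129b, and the replicate pairs did not overlap.

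The other members without overlap covered several roles. Among them were the receptors Ifnar1 and Ifngr1, the kinase Jak1, Stat2, Ifit2, Ddx58, Trim25, Dtx3l, Tapbp and B2m. B2m averaged 321 FPKM in replicates 1 and 2 and 259 FPKM in 3 and 4, a log2 difference of 0.34 within siNC and 0.27 within siFam129b. Ddx58 averaged 5.36 and 4.03 FPKM, with differences of 0.36 and 0.33. In Jak1, Dtx3l and Trim25 the low value of siFam129b library 4 enlarged the difference within siFam129b. It came to 0.42, 0.69 and 0.18, against 0.10, 0.23 and 0.09 within siNC. That library was also the lowest of all 8 in Ifnar1, Stat2, Ifit2 and B2m. Their differences were 0.20, 0.32, 0.31 and 0.27 within siFam129b, against 0.13, 0.21, 0.19 and 0.34 within siNC. Tap2, with 13.7, 15.3, 10.6 and 8.01 FPKM with siNC and 15.6, 13.4, 9.89 and 17.7 FPKM with siFam129b, followed the pattern in siNC (0.60) but not in siFam129b (0.12), where library 4 was its highest. Parp9 did the reverse, at 0.07 within siNC and 0.52 within siFam129b.

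Irf3, Irf9, Adar, Ifi35, Bst2 and H2-D1 were the 6 tested members that were not higher in replicates 1 and 2, with differences between -0.15 and -0.04. H2-D1 and Ifi35 were higher there within siNC (0.26 and 0.05) and lower within siFam129b (-0.35 and -0.27), where library 4 was their highest. Bst2 was at -0.007 within siNC and -0.24 within siFam129b, and Irf3, Irf9 and Adar were lower in both groups. Without siFam129b library 4, 25 of the 29 members were higher in replicates 1 and 2. Among the 11 members under the filter Irf7 averaged 1.06 FPKM in replicates 1 and 2 and 0.717 FPKM in 3 and 4, Ifih1 1.12 and 0.684 FPKM and Ifit1 1.01 and 0.686 FPKM. In siNC the pairs of each of these 3 did not overlap, while in siFam129b the pairs of all 3 did. Over the 11, 9 averaged higher in replicates 1 and 2 on the log2(FPKM + 1) scale, and in 1, Parp14, all 4 libraries lay above. The other 2, Oasl1 and Oas1a, were lower there, Oasl1 with 0.320 FPKM in replicates 1 and 2 and 0.476 FPKM in 3 and 4.

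Without siFam129b library 4, 16 of the 29 members lay wholly above, where 18.2% of tested genes did, and 0 below, where 18.8% did. With libraries rescaled to an equal sum, 12 lay above, where 14.2% of tested genes did, and 0 below, where 8.44% did. Other genes of the pathway were taken from a list of 125 that holds no member. Of its 71 tested genes 49 (69.0%) were higher in replicates 1 and 2. Wholly above lay 7 (9.86%) and wholly below 5 (7.04%). Without siFam129b library 4 these counts were 24 (33.8%) and 10 (14.1%), and with libraries rescaled to an equal sum 19 (26.8%) and 2 (2.82%). Myog averaged higher in replicates 1 and 2 as well, by 1.20 on the log2(FPKM + 1) scale, while the summed leukocyte level was 2.86 to 3.27 FPKM in replicates 1 and 2 and 2.86 to 4.57 FPKM in 3 and 4. Between siFam129b and siNC the 5 myoblast markers differed by -0.98 to 0.13, with 2 higher and 3 lower and 0 passing. The difference of -0.98 was the lowest of all 11025 tested genes, below the -0.78 of Fam129b. Myog was among the 10 genes called between the groups in replicates 1 and 2 alone. The part of differentiation state in the interferon values was not tested. In bulk RNA, fewer cells with a transcript and less of it per cell cannot be told apart.

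Whether the siFam129b difference itself depended on the replicate pair was tested as an interaction in limma, with 2 libraries per cell. No member passed, and 0% of all 11025 genes did; 98 genes, 1 of them a member, stood at an unadjusted p under 0.05. That member was Tap1, with an interaction of -0.59 ± 0.23 (SE) and an adjusted p of 0.895. Tap1 held 2.71, 2.56, 1.76 and 1.26 FPKM with siNC and 2.81, 1.97, 2.48 and 2.48 FPKM with siFam129b, so siNC libraries 3 and 4 were low and siFam129b libraries 3 and 4 were not.

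siFam129b library 4 was often the lowest or highest library, in a smaller share of the members than of all tested genes. In 9 of the 29 it was the lowest of all 8 libraries, where it was lowest in 37.7% of all tested genes, and in 7 it was the highest, where it was highest in 39.9%. Relative to siFam129b libraries 1 to 3 it held 57.8% of Jak1 and 56.4% of Eif2ak2, and 161% of H2-D1, 148% of Irf3 and 143% of Bst2. Its direction went with gene length as implied by the FPKM steps. Over the 8 members under 2000 bases its median log2 departure was 0.31, over the 15 between 2000 and 4000 bases -0.24 and over the 6 of 4000 bases or more -0.33. Over all tested genes the same classes had medians of 0.41, 0.05 and -0.49. Spearman's rho between length and departure was -0.54 across the 29 members and -0.60 across all tested genes, which share the library and are no independent replicates. Isg15 and B2m, at 757 and 859 bases among the shortest, departed by -0.19 and -0.28, on the opposite side from Bst2 at 770 bases (0.49). The part of RNA quality in these values was not tested.

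**Figure D4:**
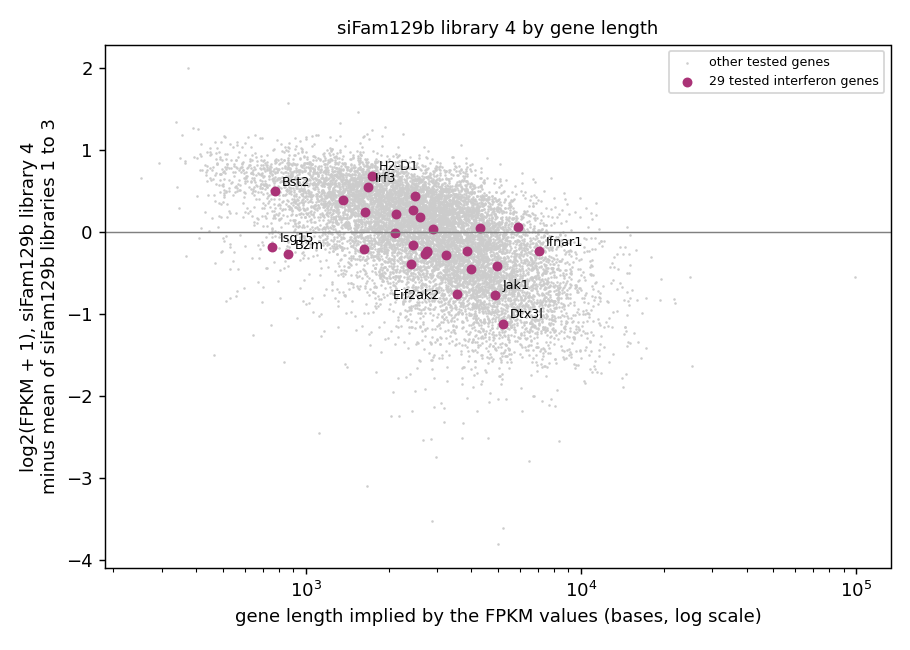
Departure of siFam129b library 4 from the mean of siFam129b libraries 1 to 3, in log2(FPKM + 1), against implied gene length on a log axis, for all tested genes in grey and the 29 tested interferon genes in purple. Long genes such as Dtx3l (-1.12) and Jak1 (-0.77) lie below 0 and the short genes Bst2 (0.49) and H2-D1 (0.68) above it, while Isg15 and B2m lie below 0 although short.

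The wider pathway list was described in the same way. None of its 71 tested genes passed, with 43 higher and 28 lower with siFam129b and a median of 0.04. The smallest p in their lists belonged to Nmi, a partner of Ifi35, with a log2 difference of 0.34 ± 0.14 (SE), to H2-Q4, a class I heavy chain, with 0.37 ± 0.16 (SE), and to H2-DMa, a class II peptide-loading chain, with 0.38 ± 0.10 (SE). Each had an adjusted p of 0.784. H2-DMa held 1.25, 1.49, 1.48 and 1.47 FPKM with siNC and 2.53, 1.92, 2.03 and 2.17 FPKM with siFam129b, and its groups did not overlap. By list, 20 of 34 tested induced genes, 8 of 11 regulators, 9 of 12 class I genes and 5 of 13 receptors, kinases and adaptors were higher with siFam129b. Ifitm3, which blocks virus entry, was the most abundant of the induced genes on this list, with a mean of 330 FPKM. Its libraries, from 229 to 393 FPKM, overlapped those of B2m, from 246 to 330.0 FPKM.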

How the data were processed

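The authors deposited FPKM values for each gene in 8 C2C12 libraries, prepared from poly(T)-purified mRNA per the labels' protocols. The build mm9 is named in the submitters' processing notes. No aligner, counter or annotation is given in the sources used here. Columns were matched to samples by group letter and replicate number in the titles. For 16478 of 16479 genes above 0 the values were ratios of whole reads within 0.001 of a read; such reads are lower bounds.

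The deposited values were taken as log2(FPKM + 1), and genes averaging 1 FPKM or more, 11025 in all, were tested with limma 3.58.1 in R 4.3.3 (trended prior variance). Adjustment was by Benjamini-Hochberg across those genes. This scale understates changes of low genes. Fits were tested on simulated data with known changes, larger than any member difference seen here and without a replicate difference. That check does not bear on differences as small as those of the members. The members, the wider lists and the replicate division were chosen with earlier results of these data known. Values in every library are given for the 5 highest members, the 8 with the smallest p, the 8 with the largest replicate difference and the highest of each role. Promoter sequences are from RefSeq (GRCm38.p6), a build other than that of the expression table.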

Additional observations from a re-analysis of the deposited data

Results flagged for a closer look

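Each group of 4 libraries was searched for a library far from the others by Dixon's ratio of gap to range, at the 95% critical value, which flags about 1 group in 20 by chance. Of 79 groups, 6 were flagged. Jak1 was low in siFam129b library 4, at 29.5 FPKM against 49.9 to 51.6 FPKM in the other 3. Adar was low in siFam129b library 1, at 9.62 FPKM against 10.7 to 10.8 FPKM. H2-D1 was high in siNC library 2, at 27.6 FPKM against 19.7 to 20.6 FPKM. Rsad2 was high in library 2 of either group, at 0.184 FPKM in siNC library 2 (24 reads, against 8 to 9 in the others) and at 0.167 FPKM in siFam129b library 2 (20 reads, against 2 to 4). Oas1a was at 0 in siNC library 2, where the others held 1 read each.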

How the results depend on the processing

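The count of 0 called members held in all 21 alternative fits, and the median difference of the members stayed above 0 in each, between 0.008 and 0.15. The number of genes called among all tested was 0 except with array weights (2), quantile normalization (1), replicates 1 and 2 alone (10), and, in a fit chosen after seeing the data, without siFam129b replicate 4 and with the replicate covariate (5); leaving out 1 library gave 0 to 1. No member was among them. The interaction called 0 genes except without siFam129b library 3 (range 0 to 6005), a fit that leaves library 4 as the only siFam129b library of its pair. The 8 members with the smallest p kept their sign in each fit that held them (Gbp2 and Dtx3l fall under the filter of 5 FPKM), although Jak1 and Dtx3l came to -0.016 and -0.007 without siFam129b library 4. Of the 29 tested members up to 9 changed sign, the most in replicates 1 and 2 alone. The median replicate difference lay between 0.17 and 0.27. The Fam129b difference lay between -0.91 and -0.73 with 1 library left out; with any siNC library left out, 3 against 4, the exact permutation p was 0.0571. Deviations from the group mean in same-numbered libraries of the 2 groups correlated at 0.53, 0.25, 0.04 and 0.12. Not every library correlated best with its own number. These correlations cannot settle whether the numbers pair the libraries, because the difference between replicates 1 and 2 and replicates 3 and 4 enters them. The fit with a replicate block called 0 genes and 0 members, with a median of 0.08. Depth limits the members at a few reads per library (Oas1a, Ifi44, Usp18, Rsad2).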
